A study of Homo sapiens with 6 samples.

Results

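Long non-coding genes with names ending in -DT are divergent transcripts: each is named for a coding gene, its partner, whose promoter region it shares and from which it runs the other way. The members described here were the rows of a count table with such a name and at least 100 counts summed over 6 libraries, 239 of 596 rows with a -DT name and of 35036 rows in all. Of the other -DT rows, 329 held fewer counts, 25 were named for zinc-finger genes of the ZNF, ZFP, ZSCAN or ZBTB type, and SLC2A1-DT, HK2-DT and ITGB1-DT were set aside by name. The members were chosen by their name and their total count, and the class was taken up because an upward shift was already known from these data. Its counts and medians are therefore given as descriptions, with no test of the class.

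The libraries came from U-2OS cells, a human osteosarcoma line. In 3 libraries (siSFPQ) the cells had received an siRNA against SFPQ, an RNA- and DNA-binding protein of the nucleus and of paraspeckles, and in 3 libraries (siCtrl) a control siRNA. Cells of both groups were exposed to actinomycin D, which blocks transcription by intercalating into DNA. How much was used and for how long is not given in the sources used here, and no library without it was analysed. The labels do not say that replicates came from separate cultures, so the p-values measure only the spread between these libraries, which may be technical. SFPQ itself and the markers of osteosarcoma cells were not analysed here, because the table lists non-coding genes, so the knockdown itself has no check in these values. In bulk RNA of this kind, fewer cells carrying a transcript and less transcript per cell cannot be told apart.

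Most mammalian promoters with many CpG dinucleotides start transcription in both directions. The sense direction gives the messenger RNA, while the upstream antisense direction usually ends early at poly(A) signals and is degraded by the nuclear exosome. Some of these upstream RNAs are spliced, polyadenylated and stable enough to be annotated as genes of their own, and those are the -DT genes. The libraries here were selected for poly(A) tails, so mainly polyadenylated forms were measured.

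The layout of the members fitted the name in most cases. All 239 partners were protein-coding in GENCODE 29 and lay on the opposite strand. The starts of the divergent transcript and its partner were at most 1000 bases apart for 215 members, with a median distance of 135 bases over all 239. The distance was taken to the nearest of the partner's transcript starts in GENCODE 29. In 146 of the 215 there was a gap to that nearest start, and in 69 there was none. A gap does not exclude overlap with other transcripts of the partner. TRIM8-DT (gap of 355 bases) and MAGOH-DT (29 bases), for example, overlap exons of their partners. For the other 24 the listed starts were farther apart than 1000 bases, FAM111A-DT and TMED2-DT among them, so the listed coordinates do not place those starts at a single promoter. The listed span of a member ranged from 632 to 731459 bases (median 22324) and its listed exonic length from 513 to 37074 bases (median 3977).

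Promoter windows from RefSeq (GRCh38.p14), which run from 250 bases before to 50 bases after a gene's start, were found for 185 of the 239 members. All 185 lay on the listed strand, and 147 had a RefSeq start within 1000 bases of the listed start. The windows below belong to the 3 members with the largest increases and the 3 with the largest decreases in siSFPQ that had one, and they show the sequence from which members that moved in opposite directions are transcribed. Each is read 5′ to 3′ on the transcript's own strand. They are chr17:81034670-81034969 (minus strand) for BAIAP2-DT, chr22:46762479-46762778 (minus) for TBC1D22A-DT and chr3:129893621-129893920 (plus) for TMCC1-DT, which rose. Those that fell are chr5:84382172-84382471 (plus) for EDIL3-DT, chr1:53238360-53238659 (plus) for MAGOH-DT and chr2:19989954-19990253 (plus) for WDR35-DT. Capitals mark matches, on either strand, to 7 short motifs. These are TATAAA of the classical core promoter, GGGCGG of the GC box, GCATGCG as the core of the NRF1 site, CCAAT of the box of that name, CACGTG of the E box, TGACG of the cAMP response element, and CCGGAAG of the ETS site. Adjoining or overlapping matches run together.
BAIAP2-DT: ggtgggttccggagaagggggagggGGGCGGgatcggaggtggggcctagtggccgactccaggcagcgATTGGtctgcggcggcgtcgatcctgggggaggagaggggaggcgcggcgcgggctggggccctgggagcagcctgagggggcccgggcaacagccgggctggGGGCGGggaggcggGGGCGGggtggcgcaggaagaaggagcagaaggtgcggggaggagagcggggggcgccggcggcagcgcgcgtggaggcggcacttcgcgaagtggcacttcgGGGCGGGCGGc
TBC1D22A-DT: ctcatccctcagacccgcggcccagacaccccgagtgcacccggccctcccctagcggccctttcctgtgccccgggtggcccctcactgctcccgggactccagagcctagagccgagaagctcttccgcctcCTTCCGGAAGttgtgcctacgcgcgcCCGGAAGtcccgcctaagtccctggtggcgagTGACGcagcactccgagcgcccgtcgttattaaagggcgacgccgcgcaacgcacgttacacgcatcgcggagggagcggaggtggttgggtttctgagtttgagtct
TMCC1-DT: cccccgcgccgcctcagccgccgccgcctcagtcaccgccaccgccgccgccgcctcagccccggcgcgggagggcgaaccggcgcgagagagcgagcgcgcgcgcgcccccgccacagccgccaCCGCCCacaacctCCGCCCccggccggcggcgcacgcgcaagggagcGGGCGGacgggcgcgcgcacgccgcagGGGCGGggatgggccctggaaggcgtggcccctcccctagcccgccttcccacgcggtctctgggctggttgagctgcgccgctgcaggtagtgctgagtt
EDIL3-DT: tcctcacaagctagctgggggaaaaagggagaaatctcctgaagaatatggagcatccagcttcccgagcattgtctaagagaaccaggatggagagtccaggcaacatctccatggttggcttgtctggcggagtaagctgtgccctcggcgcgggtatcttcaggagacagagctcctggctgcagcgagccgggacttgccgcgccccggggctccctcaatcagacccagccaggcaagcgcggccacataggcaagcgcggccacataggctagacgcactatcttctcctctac
MAGOH-DT: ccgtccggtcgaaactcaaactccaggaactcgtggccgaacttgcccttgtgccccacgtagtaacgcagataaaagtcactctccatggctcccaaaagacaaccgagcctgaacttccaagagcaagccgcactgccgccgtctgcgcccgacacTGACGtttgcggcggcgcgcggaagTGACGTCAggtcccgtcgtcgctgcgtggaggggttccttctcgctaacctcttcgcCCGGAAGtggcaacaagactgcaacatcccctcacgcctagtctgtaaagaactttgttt
WDR35-DT: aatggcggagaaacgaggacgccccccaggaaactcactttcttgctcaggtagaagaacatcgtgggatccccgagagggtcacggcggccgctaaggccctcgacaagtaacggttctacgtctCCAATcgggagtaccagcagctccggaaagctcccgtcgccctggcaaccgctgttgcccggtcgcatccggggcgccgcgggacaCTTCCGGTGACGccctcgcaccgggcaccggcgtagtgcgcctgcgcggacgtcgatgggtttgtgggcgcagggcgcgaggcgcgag

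The windows were those of CpG-rich promoters. Over the 185 members the median GC content was 67.7% and the median number of CpG dinucleotides 30 in 300 bases, against 58.7% and 14 over all 35116 promoters of the reference table. TATAAA stood in 3.78% of member windows and in 11.5% of all promoters, GGGCGG in 72.4% and 45.0%, TGACG in 42.7% and 24.6%, and CCGGAAG in 21.6% and 10.3%. Of the printed windows, the GC-richest was that of TMCC1-DT (80.3%, 49 CpG) and the most CpG-poor that of EDIL3-DT (59.0%, 15 CpG), in which none of the 7 motifs was found. GGGCGG was found in 56 of 72 windows of members that were higher in siSFPQ (77.8%), in 16 of 32 windows of members that were lower (50%) and in 62 of 81 of the others (76.5%). GCATGCG was found in 3 of the 72, in 0 of the 32 and in 13 of the 81. These are counts of letters in fixed windows and were not tested.

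Table totals were 1298658 to 1599566 counts in siSFPQ and 1385532 to 1533974 in siCtrl. They cover the non-coding part of a library only and are no measure of how deeply it was sequenced. Levels below are in CPM, counts scaled to a common total per library, relative to those sums after TMM scaling, with factors of 1.02 to 1.03 in siSFPQ and 0.976 to 0.982 in siCtrl. The library kit was stranded per the labels, yet MALAT1 on the plus strand and TALAM1 opposite it held 72563 and 72552 counts, so the counts of that pair are not separated by strand. Among the 79 members overlapped by an opposite-strand row with counts, 0 pairs agreed within 1%, so how far members share reads with overlapping genes is not known. The overlaps are many: the exons of 101 members overlap exons of a coding gene, of their own partner in 58 cases, and 87 members are overlapped by another row with counts. For 138 members no exon overlaps a coding exon, and for 61 of these the whole listed span is also free of them. Here and below, these overlaps rest on GENCODE 29 exons for 235 members and on the listed span for the other 4. The exons that were counted may differ from those, and not every overlap is repeated for the members below. JUN-DT is among the 138, although its listed start lies inside JUN (start gap -161 bases).

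All 239 members passed the filter on low counts and were tested with every other row. In siSFPQ, 94 members were higher (39.3%) and 36 were lower (15.1%), at an adjusted p under 0.05 (edgeR quasi-likelihood test, Benjamini-Hochberg over 6325 rows), and 109 did not pass. Over all tested rows, 24.5% were higher and 24% were lower, 48.4% in either direction. The DESeq2 alternative called 52 members higher and 19 lower, against 10.1% and 10.6% of the 8381 rows it tested. The median log2 fold change, siSFPQ over siCtrl, was 0.19 over the members and 0.01 over all tested rows, and it was above 0 for 155 members (64.9%) and for 50.5% of all tested rows. Among the 4727 other rows with at least 100 counts, 25.6% were higher and 27.6% lower, with a median of -0.01. Members that rose were thus a larger share, and members that fell a smaller one, than among those rows. Of the 155 members above 0, 61 did not pass the test.

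The increases were mostly moderate. Members that rose did so by a log2 fold change of 0.22 to 1.81, with a median of 0.69. A rise of at least 1 was called for 21 of all 239 members, against 434 of all 6325 tested rows (6.86%). Members that fell had changes of -0.20 to -1.08, with a median of -0.55. Of the 239 members only EDIL3-DT and ACAD9-DT fell by 1 or more, against 340 of all 6325 tested rows (5.38%). The siSFPQ and siCtrl libraries did not overlap, with siSFPQ above, for 98 of the 239 members and for 1714 of the 6325 tested rows (27.1%). With siSFPQ below, they did not overlap for 39 of the 239 members and for 1699 of the 6325 rows (26.9%). In either direction the share of all tested rows was 54%.

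**Figure D1:**
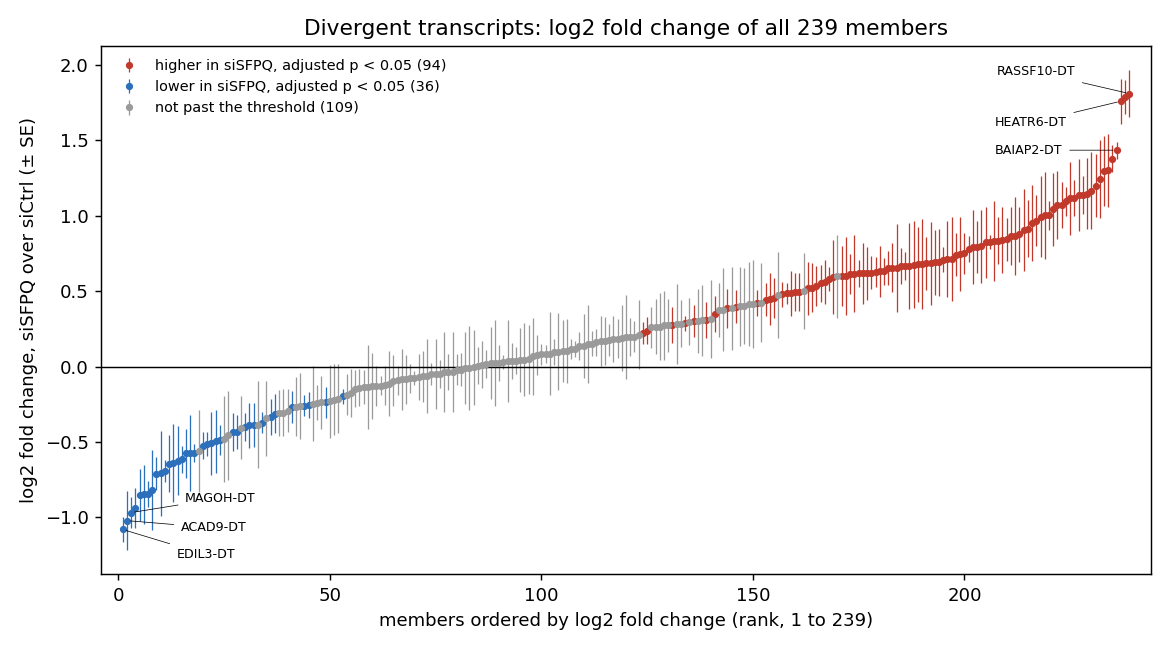
Log2 fold change, siSFPQ over siCtrl, of each of the 239 members (vertical axis, with its standard error), ordered along the horizontal axis from the lowest to the highest; colours give the call of the edgeR test. The right arm is longer and higher than the left: 94 members were higher in siSFPQ, up to 1.81, and 36 were lower, down to -1.08.

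As a share of all counts in the table, the members held 2.87% ± 0.02 in siSFPQ and 2.43% ± 0.01 in siCtrl (SD, n = 3 each). The 3 siSFPQ libraries held 2.85%, 2.87% and 2.89% and the 3 siCtrl libraries 2.43%, 2.43% and 2.41%, so the groups did not overlap. Abundance was uneven, and the 5 most abundant members held 33.4% of all member counts. Without those 5 the share was 1.91% in siSFPQ and 1.62% in siCtrl. The difference for all members was smaller against TMM-scaled totals of the tested rows, at 2.86% in siSFPQ and 2.52% in siCtrl.

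**Figure D2:**
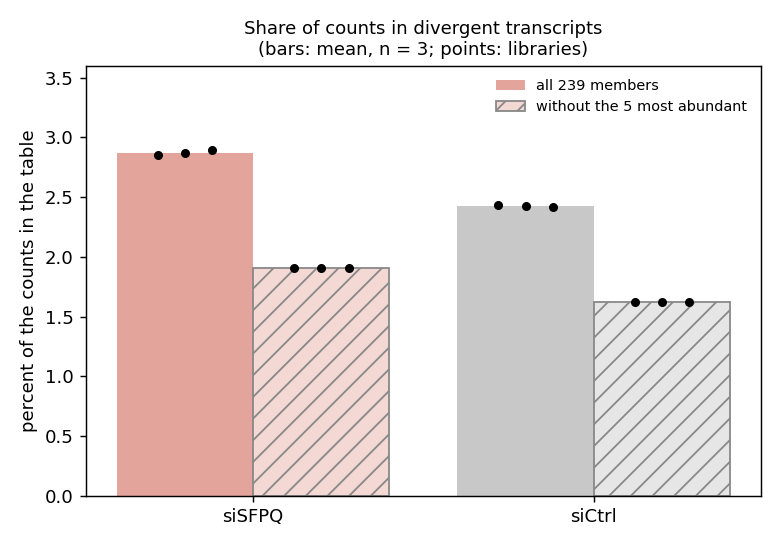
Percent of the counts in the table that fell in the members (vertical axis), siSFPQ left and siCtrl right; solid bars are means over all 239 members, hatched bars means without the 5 most abundant, and points are the 3 libraries of each group. All 3 siSFPQ libraries, at 2.85% to 2.89%, lie above the siCtrl libraries, at 2.41% to 2.43%.

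RASSF10-DT (ENSG00000254670, chr11:12980022-13009159, minus strand) had the largest increase. Its partner RASSF10 is a Ras-association domain protein often silenced in tumours. Its CPM was 87.0, 84.1 and 75.0 in the siSFPQ libraries, against 20.7, 27.9 and 20.9 in the siCtrl libraries. The lowest siSFPQ library was well above the highest siCtrl library, and the log2 fold change was 1.81 ± 0.16 (SE; edgeR adjusted p = 3.7e-29). No exon of it overlaps a coding exon, but LINC00958, a row on the same strand that overlaps its 3′ part, held 2588 counts and rose by 1.25, and how reads were divided between them was not tested.

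HEATR6-DT (ENSG00000267416, chr17:60078946-60088713, plus strand) had 90.1, 81.0 and 93.1 CPM in siSFPQ, against 34.3, 21.1 and 22.4 CPM in siCtrl. All siSFPQ libraries were higher, and the log2 fold change was 1.76 ± 0.15 (edgeR adjusted p = 4.2e-30). WFDC21P, a pseudogene row on the opposite strand over it, held 827 counts and rose by 2.05, so the reads of the pair may be shared.

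BAIAP2-DT (ENSG00000226137, chr17:81017969-81034881, minus strand) was the most abundant of the strong risers. Its partner BAIAP2 links small GTPases to membrane curvature and actin. Levels of 1049, 1096 and 1183 CPM in siSFPQ stood against 405, 402 and 426 CPM in siCtrl. The 3 libraries of each group lay close together and far from the other group (log2 fold change 1.43 ± 0.06; edgeR adjusted p = 9.5e-136). An unnamed row on the opposite strand over it (ENSG00000304189, 1446 counts) rose by 1.39.

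TRIM8-DT (ENSG00000272933, chr10:102642792-102644140, minus strand) lies beside TRIM8, a RING-type ubiquitin ligase. It had 205, 269.7 and 273 CPM in siSFPQ, against 90.6, 89.0 and 111 CPM in siCtrl, without overlap. The log2 fold change was 1.38 ± 0.09 (edgeR adjusted p = 8.6e-50). Its exons overlap TRIM8 exons on the other strand, so TRIM8 messenger RNA may add to this row.

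Another 5 of the 10 largest increases were at low levels, below 41 CPM in every library. TBC1D22A-DT, at a gene of the Rab GTPase-activating TBC family, had 26.7, 29.9 and 27.8 CPM in siSFPQ, against 10.7, 16.3 and 6.73 CPM in siCtrl (log2 fold change 1.30 ± 0.24). LHX1-DT, at a LIM-homeobox transcription factor gene, had 26.0, 26.2 and 38.8 CPM in siSFPQ, against 8.56, 15.6 and 12.7 CPM in siCtrl (1.30 ± 0.23). TMCC1-DT, at the gene of an endoplasmic reticulum membrane protein, had 28.3, 18.7 and 25.2 CPM in siSFPQ, against 7.85, 8.15 and 14.2 CPM in siCtrl (1.25 ± 0.26). For these 3 the groups did not overlap, although single libraries stood apart, siSFPQ library 3 for LHX1-DT and siCtrl library 3 for TMCC1-DT. MIF4GD-DT, at a gene that acts in histone messenger RNA translation, had 33.6, 37.4 and 40.1 CPM in siSFPQ, against 16.4, 17.0 and 15.0 CPM in siCtrl (1.20 ± 0.21). LRP8-DT, at a receptor gene for reelin and apolipoprotein E, had 24.4, 25.5 and 23.9 CPM in siSFPQ, against 8.56, 10.2 and 14.2 CPM in siCtrl (1.17 ± 0.25). The edgeR adjusted p of these 5 ranged from 7.3e-08 for MIF4GD-DT to 1.9e-05 for LRP8-DT. Of the 5, MIF4GD-DT is the one whose exons overlap coding exons.

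EDIL3-DT (ENSG00000250320, chr5:84382422-84606399, plus strand) had the largest decrease. EDIL3 encodes an integrin-binding matrix protein. The row had 129, 145 and 118 CPM in siSFPQ, against 319, 262 and 248 CPM in siCtrl, with the highest siSFPQ library far below the lowest siCtrl library. The log2 fold change was -1.08 ± 0.08 (edgeR adjusted p = 1.9e-36). Its exons overlap EDIL3 exons, and its promoter window, printed above, lies within the partner, since the listed start gap to EDIL3 is -1964 bases.

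ACAD9-DT (ENSG00000287110, chr3:128854556-128879442, minus strand) is free of coding exons over its whole listed span. Its partner ACAD9 is needed to assemble mitochondrial complex I. It had 19.9, 20.6 and 18.1 CPM in siSFPQ, against 40.0, 38.7 and 40.4 CPM in siCtrl. Within each group the libraries differed by a few CPM, and the groups lay far apart (log2 fold change -1.02 ± 0.20; edgeR adjusted p = 1.2e-06).

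MAGOH-DT (ENSG00000226754, chr1:53238537-53246482, plus strand) starts beside MAGOH, a core subunit of the exon junction complex. It had 75.6, 72.9 and 84.0 CPM in siSFPQ, against 145, 154 and 157 CPM in siCtrl, without overlap (log2 fold change -0.97 ± 0.10; edgeR adjusted p = 2.7e-19). Its exons overlap those of MAGOH and of LRP8, a gene whose own divergent transcript, LRP8-DT, rose. LRP8-DT is listed at chr1:53328220-53363914, on the same strand and farther along, so the pair does not overlap.

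WDR35-DT (ENSG00000227210, chr2:19990165-20004821, plus strand) has as its partner WDR35, a subunit of the intraflagellar transport complex of cilia. It had 51.2, 41.7 and 40.7 CPM in siSFPQ, against 92.1, 81.5 and 80.8 CPM in siCtrl (log2 fold change -0.94 ± 0.13; edgeR adjusted p = 1.9e-11). The highest siSFPQ library stayed well below the lowest siCtrl library. None of its GENCODE 29 exons overlaps a coding exon, although its listed span does hold coding exons.

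The remaining 4 of the 8 largest decreases lay between -0.85 and -0.82. MAP4K3-DT, at a kinase gene of the mTOR pathway, had 29.02, 27.4 and 25.2 CPM in siSFPQ, against 47.8, 46.9 and 52.4 CPM in siCtrl. GOT1-DT, at the gene of cytosolic aspartate aminotransferase, had 22.9, 21.2 and 19.4 CPM in siSFPQ, against 44.2, 36.01 and 33.7 CPM in siCtrl. TMEM30A-DT, at the gene of a phospholipid flippase subunit, had 134, 115 and 116 CPM in siSFPQ, against 208, 203 and 242 CPM in siCtrl. In these 3 the groups did not overlap, and edgeR adjusted p was 4.7e-06, 6.1e-05 and 4.1e-20. SUCLG2-DT, at the gene of a succinyl-CoA ligase subunit, had 12.2, 10.6 and 10.3 CPM in siSFPQ, against 23.5, 17.0 and 18.0 CPM in siCtrl (log2 fold change -0.82 ± 0.27; edgeR adjusted p = 0.0055). That call was lost without siCtrl library 1 (-0.67, edgeR adjusted p = 0.0613). Exons of MAP4K3-DT, GOT1-DT and TMEM30A-DT overlap exons of TMEM178A, GOT1 and FILIP1, in that order. The GENCODE 29 exons of SUCLG2-DT overlap none, but its listed span does hold coding exons, and its start gap to SUCLG2 is -22 bases.

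**Figure D3:**
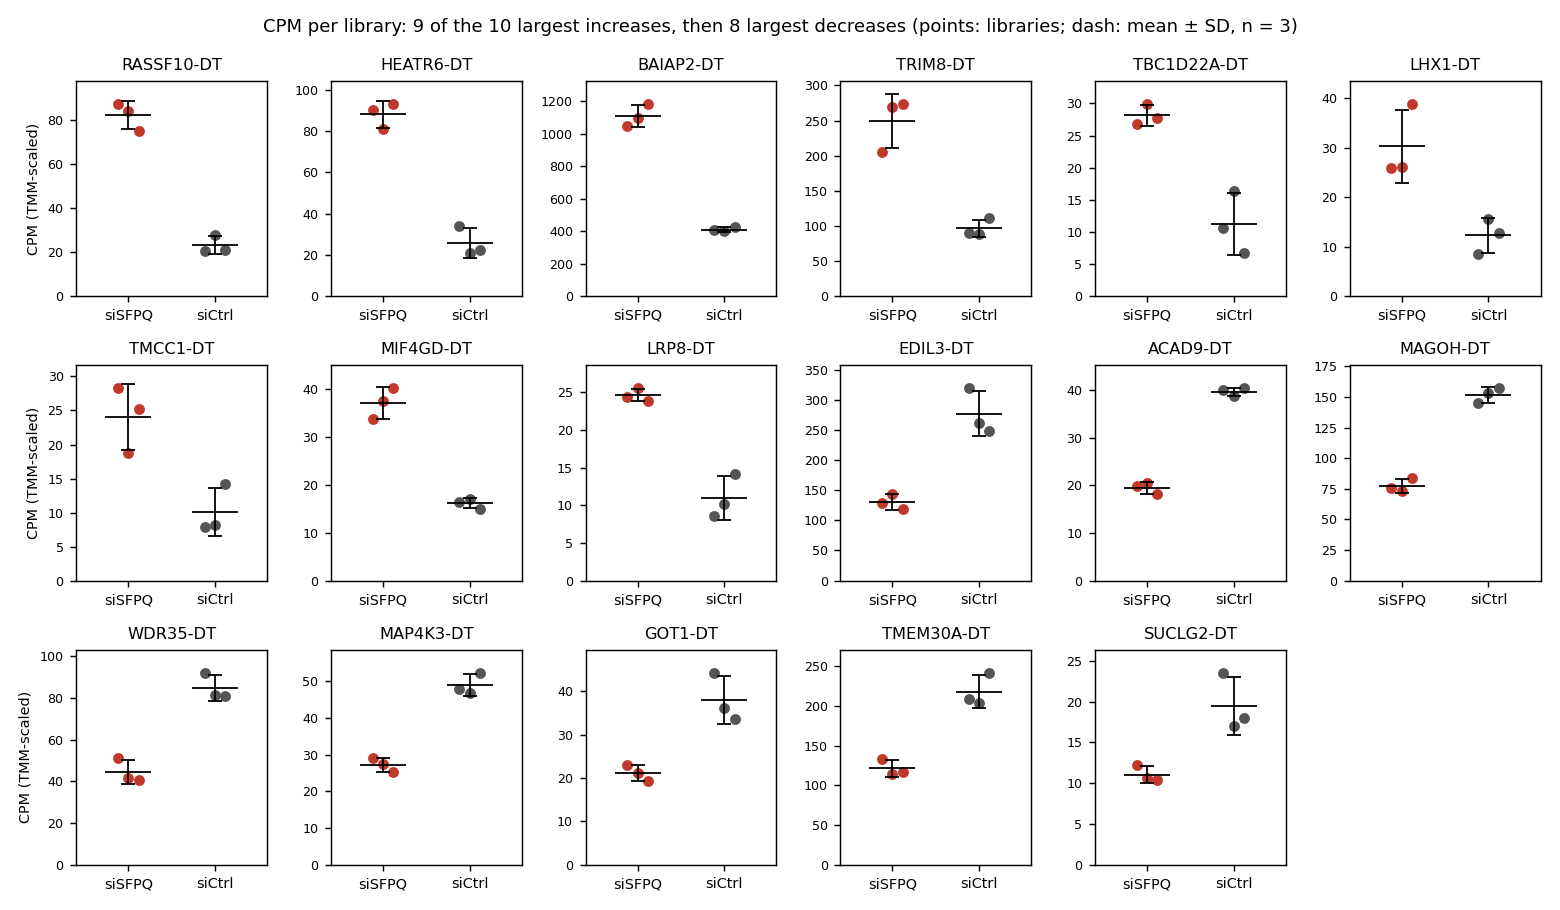
CPM (TMM-scaled, vertical axes from 0) of 9 of the 10 members with the largest increases, followed by the 8 with the largest decreases; in each panel siSFPQ is left and siCtrl right, points are the 3 libraries, and the dash and whiskers are their mean and SD. These members were drawn from those whose groups do not overlap, so the separation in all 17 panels was set by that choice. The panels run from RASSF10-DT (75.0 to 87.0 against 20.7 to 27.9) to SUCLG2-DT (10.3 to 12.2 against 17.0 to 23.5).

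Most of the most abundant members changed less, BAIAP2-DT, given above, and MVP-DT being exceptions. MVP-DT, at the gene of the major vault protein, had 2844, 2924 and 3086 CPM in siSFPQ, against 1716, 1640.2 and 1632 CPM in siCtrl (log2 fold change 0.83 ± 0.05; edgeR adjusted p = 6.6e-70). It was the most abundant member of all, and its groups were far apart. Its exons overlap those of MAZ, PAGR1 and PRRT2, and an unnamed opposite-strand row over it (ENSG00000280607, 3829 counts) rose by 0.84. STX5-DT, at a Golgi SNARE gene, had 1145, 1233 and 1198 CPM in siSFPQ, against 973, 1009.6 and 949 CPM in siCtrl (0.29 ± 0.05; edgeR adjusted p = 1.1e-07), and its exons overlap those of WDR74. SNHG1, a row on the opposite strand over it, held 27665 counts and rose by 0.18. The groups of STX5-DT were separate.

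Among abundant members that fell, USP34-DT, at a deubiquitinase gene, had 1422, 1386 and 1467 CPM in siSFPQ, against 1626, 1627 and 1652 CPM in siCtrl. The difference was small and the groups did not overlap (log2 fold change -0.20 ± 0.05; edgeR adjusted p = 0.00015). Its exons overlap those of XPO1, the nuclear export receptor. WDR5B-DT had 509, 447 and 449.9 CPM in siSFPQ, against 677, 687 and 721 CPM in siCtrl (-0.57 ± 0.06; edgeR adjusted p = 5.8e-21), with exons over those of KPNA1, a nuclear import adaptor. EOGT-DT, at a gene for an O-GlcNAc transferase of the secretory pathway, averaged 275 ± 15.2 CPM in siSFPQ and 328 ± 13.0 CPM in siCtrl (-0.26 ± 0.07). ACTN1-DT, at the alpha-actinin gene, averaged 244 ± 14.0 CPM in siSFPQ and 315 ± 7.33 CPM in siCtrl (SD, n = 3 each; -0.37 ± 0.07). Neither of these last had overlapping groups, and exons of EOGT-DT overlap those of EOGT, TMF1 and UBA3.

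Several of the most abundant members did not pass the test. H2AZ1-DT, at a histone variant gene whose exons it overlaps, had 2179, 2224 and 2263 CPM in siSFPQ, against 2408, 2407 and 2205 CPM in siCtrl (log2 fold change -0.07 ± 0.05; edgeR adjusted p = 0.17). GAPDH-DT, at the gene of the glycolytic enzyme, had 1789, 1753 and 1821 CPM in siSFPQ, against 1744, 1731 and 1779.8 CPM in siCtrl (0.03 ± 0.05; edgeR adjusted p = 0.64). In both the groups overlapped. BTF3-DT, at the gene of a subunit of the nascent polypeptide-associated complex, had 897, 882 and 897 CPM in siSFPQ, against 800.0, 869.7 and 794 CPM in siCtrl (0.12 ± 0.05; edgeR adjusted p = 0.053). TMED2-DT, at the gene of a cargo receptor between the endoplasmic reticulum and the Golgi, had 433, 399 and 432 CPM in siSFPQ, against 494, 445 and 439.9 CPM in siCtrl (-0.13 ± 0.06; edgeR adjusted p = 0.08). Neither of this pair had overlapping groups, and single libraries decided their side of the threshold: BTF3-DT passed without siCtrl library 2 (edgeR adjusted p = 0.0353), TMED2-DT without siCtrl library 2 (0.0454) or 3 (0.0324), and H2AZ1-DT without siCtrl library 3 (0.02). Per kilobase of listed exon, GAPDH-DT stood at 512 CPM in siSFPQ and 502 in siCtrl, close to STX5-DT at 573 and 470.0, and below MVP-DT at 612 in siSFPQ but above its 345 in siCtrl.

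The coding partners of 117 members fell into 12 lists by function, and those of the other 122 into none. Of the listed members 44 were higher, 17 were lower and 56 did not pass, and of the unlisted ones 50, 19 and 53. In 10 of the 12 lists more members were higher than lower, to be read beside the 24.5% higher and 24% lower of all tested rows. The share higher ranged from 25% in the cytoskeleton and DNA repair lists, 27.3% at RNA processing, 30% at ribosome and 30.8% at mitochondrial genes, which in lists this small is near that background, to 63.6% in the vesicle traffic list. The exceptions were the cytoskeleton list, with more lower, and the DNA repair list, with as many of each.

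Partners of vesicle traffic, the endoplasmic reticulum, the Golgi and the lysosome had the highest median, 0.68 over 11 members, of which 7 were higher and 0 lower. RAB30-DT, at a Golgi Rab GTPase gene, had 243, 244 and 259 CPM in siSFPQ, against 183, 135 and 139 CPM in siCtrl (log2 fold change 0.71 ± 0.08; edgeR adjusted p = 2.4e-16). The lowest siSFPQ library was far above the highest siCtrl library, and LINC02951, on the opposite strand over it, rose by 0.63. The others that rose were TMCC1-DT, STX5-DT, MAN1B1-DT (0.79), at a mannosidase gene of glycoprotein quality control, COPB2-DT (0.69), at a COPI coat gene, GOLPH3-DT (0.68), at a Golgi phosphoprotein gene, and ATP6AP1-DT (0.68), at an accessory subunit gene of the vacuolar proton pump. DNAJC3-DT, VPS13B-DT, VPS39-DT and TMED2-DT did not pass, at 0.50 down to -0.13.

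Partners of membrane transport came next, with a median of 0.45 over 7 members, of which 4 were higher and 0 lower. SLC12A2-DT, at the gene of the sodium-potassium-chloride cotransporter, had 254, 276 and 264 CPM in siSFPQ, against 183, 171 and 177 CPM in siCtrl (log2 fold change 0.58 ± 0.08; edgeR adjusted p = 2.8e-12). CNNM3-DT, at a gene linked to magnesium transport, had 65.7, 66.6 and 73.7 CPM in siSFPQ, against 46.4, 31.9 and 45.6 CPM in siCtrl (0.74 ± 0.14; edgeR adjusted p = 1.2e-06). In both, every siSFPQ library was above every siCtrl library, and exons of SLC12A2-DT overlap those of CCDC192. FLVCR1-DT (0.95), at a heme and choline transporter gene, and LRRC8C-DT (0.45), at a volume-regulated anion channel gene, also rose.

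Among 18 members at kinase, phosphatase and signalling genes, 6 were higher and 4 were lower (median 0.08). PPP1CB-DT, at a catalytic subunit gene of protein phosphatase 1, had 44.3, 56.7 and 58.2 CPM in siSFPQ, against 24.3, 29.2 and 28.4 CPM in siCtrl (log2 fold change 0.97 ± 0.17; edgeR adjusted p = 7.3e-08). Its groups were well apart, and so were those of MAP4K3-DT, given above, in the other direction. The other risers were PPM1K-DT (1.00), PPP4R3B-DT (0.69), PRKACB-DT (0.66), MAP3K2-DT (0.42) and MAP3K9-DT (0.39), and the others that fell were DUSP5-DT (-0.63), GAS6-DT (-0.43) and CRIM1-DT (-0.34).

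In the list of mitochondria and energy metabolism, 4 of 13 members were higher and 3 were lower (median 0.04). TOMM22-DT, at an import receptor gene of the outer mitochondrial membrane, had 147, 143 and 138 CPM in siSFPQ, against 91.3, 101 and 83.8 CPM in siCtrl (log2 fold change 0.63 ± 0.10; edgeR adjusted p = 5.9e-09). The groups did not overlap. Exons of TOMM22-DT overlap those of CBY1. PCCA-DT (0.83), COX10-DT (0.75) and MRPS35-DT (0.52) also rose, while ACAD9-DT, SUCLG2-DT and ECI2-DT (-0.50), the last at a fatty acid oxidation gene, fell.

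In the cytoskeleton and adhesion list, 3 of 12 were higher and 4 were lower (median 0.11). FN1-DT, at the fibronectin gene, had 189, 192 and 191 CPM in siSFPQ, against 282, 241 and 296 CPM in siCtrl (log2 fold change -0.51 ± 0.08; edgeR adjusted p = 4e-10). The siSFPQ libraries were nearly equal and all lay below the siCtrl libraries. The GENCODE 29 exons of FN1-DT overlap no coding exon, but its listed span holds coding exons and its start gap to FN1 is -453 bases. ACTN1-DT, SEPTIN7-DT (-0.51) and WASL-DT (-0.64), the last at a gene that activates branched actin assembly, fell as well, and BAIAP2-DT, FMNL1-DT (0.35) and MYH9-DT (0.22) rose.

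Of 11 members at RNA processing genes, 3 were higher and 1 was lower (median 0.28). MAGOH-DT fell, as given above, and SMG1-DT (0.82), at a kinase gene of nonsense-mediated decay, and ARGLU1-DT (0.30) rose. The 3 members at nucleoporin genes, NUP50-DT (0.28), NUP107-DT (-0.21) and NUP133-DT (-0.26), did not pass. Of 10 members at ribosome, translation and tRNA genes, 3 were higher and 0 lower (median 0.10). RPL37A-DT, at a ribosomal protein gene, had 42.0, 41.1 and 46.5 CPM in siSFPQ, against 19.98, 25.8 and 24.7 CPM in siCtrl (0.88 ± 0.18; edgeR adjusted p = 1.1e-05). SRP14-DT, at a signal recognition particle gene, averaged 108 ± 15.1 CPM in siSFPQ and 79.3 ± 9.02 CPM in siCtrl (0.44 ± 0.11). The groups of both were separate, and exons of RPL37A-DT overlap those of RPL37A. TRMT61A-DT (0.62), at a tRNA methyltransferase gene, rose too.

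At ubiquitin, proteasome and autophagy genes, 4 of 11 were higher and 1 was lower (median 0.04). Next to TRIM8-DT, PSMD14-DT, at a deubiquitinase gene of the proteasome lid, had 48.1, 44.8 and 35.6 CPM in siSFPQ, against 18.6, 21.7 and 27.7 CPM in siCtrl (log2 fold change 0.91 ± 0.19; edgeR adjusted p = 5.8e-06). The groups did not overlap. Its exons overlap those of PSMD14 and TANK, and LINC01806, on the opposite strand over it, rose by 0.88. USP46-DT (0.60) rose and USP34-DT fell.

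Of 8 members at chromatin and histone genes, 4 were higher and 1 was lower (median 0.27). H2AZ2-DT, at a gene for the histone variant H2A.Z, had 185, 199.9 and 182 CPM in siSFPQ, against 116, 119 and 122 CPM in siCtrl (log2 fold change 0.67 ± 0.09; edgeR adjusted p = 4e-12). The groups were far apart, whereas those of H2AZ1-DT, at the other H2A.Z gene, overlapped. PRMT5-DT, at an arginine methyltransferase gene, had 215, 208 and 215 CPM in siSFPQ, against 141, 119.6 and 156 CPM in siCtrl (0.62 ± 0.09; edgeR adjusted p = 1.5e-11). Exons of PRMT5-DT overlap those of HAUS4. MTA1-DT (0.91), at a gene of the NuRD complex, and CTBP1-DT (0.24) also rose, and SAP30-DT (-0.64), at a histone deacetylase complex gene, fell.

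Of 7 members at transcription factor genes, 3 were higher and 1 was lower (median 0.29). TCF12-DT, at a helix-loop-helix factor gene, had 58.0, 60.4 and 80.2 CPM in siSFPQ, against 36.4, 27.9 and 30.7 CPM in siCtrl (log2 fold change 1.07 ± 0.15; edgeR adjusted p = 3.4e-11). CTCF-DT, at the gene of the insulator protein, had 112, 108 and 112 CPM in siSFPQ, against 68.5, 69.3 and 74.1 CPM in siCtrl (0.65 ± 0.11; edgeR adjusted p = 6.2e-08). In both the groups were separate, and exons of TCF12-DT overlap those of AC090517.4. Of 5 other rows tested that overlap CTCF-DT, 3 rose, by 0.37 to 0.50. JUN-DT (0.68) rose, with a call that single libraries decided, and ATF6-DT (-0.40), at a gene of the unfolded protein response, fell.

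The smallest lists moved in both directions. Of 5 members at cell cycle genes 2 were higher and 1 was lower (median 0.16), and CDC20-DT, at the gene of an activator of the anaphase-promoting complex, had 33.6, 24.9 and 27.8 CPM in siSFPQ, against 11.4, 12.9 and 14.2 CPM in siCtrl (log2 fold change 1.15 ± 0.23; edgeR adjusted p = 6e-06). CKAP2-DT, at a spindle protein gene, averaged 24.1 ± 1.71 CPM in siSFPQ and 13.7 ± 3.75 CPM in siCtrl (0.80 ± 0.24; edgeR adjusted p = 0.0029). Neither had overlapping groups. Of 4 members at DNA repair genes 1 was higher and 1 was lower (median 0.20). RNASEH1-DT, at the gene of the enzyme that removes RNA from RNA-DNA hybrids, had 174, 171 and 195 CPM in siSFPQ, against 87.8, 92.4 and 89.0 CPM in siCtrl (1.00 ± 0.10; edgeR adjusted p = 4.1e-23), with exons over those of RNASEH1. FAM111A-DT, at a protease gene of replication forks, averaged 33.3 ± 5.03 CPM in siSFPQ and 49.2 ± 2.64 CPM in siCtrl (-0.58 ± 0.16; edgeR adjusted p = 0.0015).

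**Figure D4:**
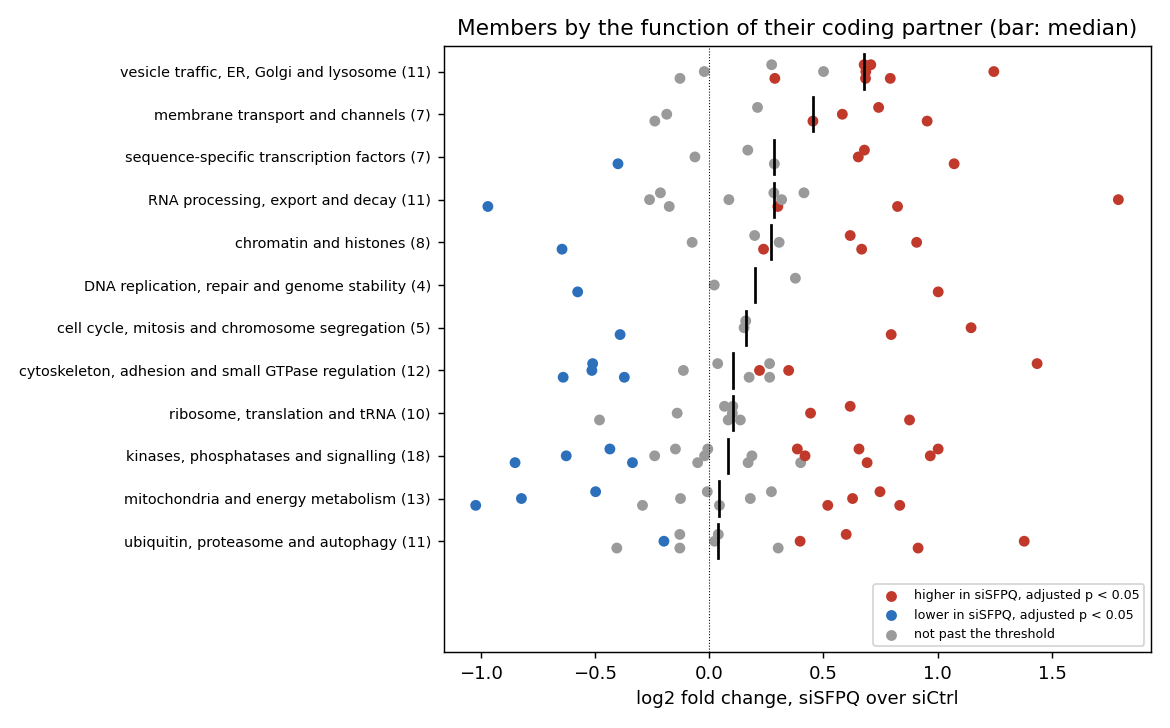
Log2 fold change, siSFPQ over siCtrl (horizontal axis), of the 117 members whose partner is in a function list; 1 row per list with its number of members, 1 point per member coloured by its call, and a bar at the list's median. Medians run from 0.68 for vesicle traffic down to 0.04 for the ubiquitin list, and 10 of the 12 lists hold more higher than lower members.

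Span and overlap with coding exons went along with the direction of change. Of the 79 members with the shortest spans (632 to 11033 bases), 38 were higher and 7 were lower, with a median of 0.41. Of the 80 in the middle (11542 to 40269 bases), 33 were higher and 12 were lower (0.21), and of the 80 longest (40553 to 731459 bases), 23 were higher and 17 were lower (0.06). Over all 239 members Spearman's rho between span and log2 fold change was -0.19, given as a description, since members share libraries. Other rows with at least 100 counts in the same span ranges were higher in 27.1%, 27.1% and 21.4% and lower in 25.9%, 26.4% and 31.9%, from the shortest range to the longest.

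The members judged to have no exon over a coding exon showed less of this order. Among those 138, 56 were higher and 16 were lower, with a median of 0.27. By span, 26 of 59 short, 15 of 39 middle and 15 of 40 long ones were higher, 6, 5 and 5 were lower, and the medians were 0.29, 0.22 and 0.29, with rho at -0.05 over the 138. Of the 101 that do overlap coding exons, 38 were higher and 20 were lower (median 0.10). The 61 members whose whole listed span is free of coding exons had 27 higher and 9 lower (median 0.27). In shares, 40.6% of the 138, 37.6% of the 101 and 44.3% of the 61 were higher, beside 24.5% of all tested rows. Lower were 11.6%, 19.8% and 14.8%, beside 24% of all tested rows. Among these members, increases outnumbered decreases also where no annotated coding exon lies within the listed span. Other rows without coding exon overlap were not counted separately.

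**Figure D5:**
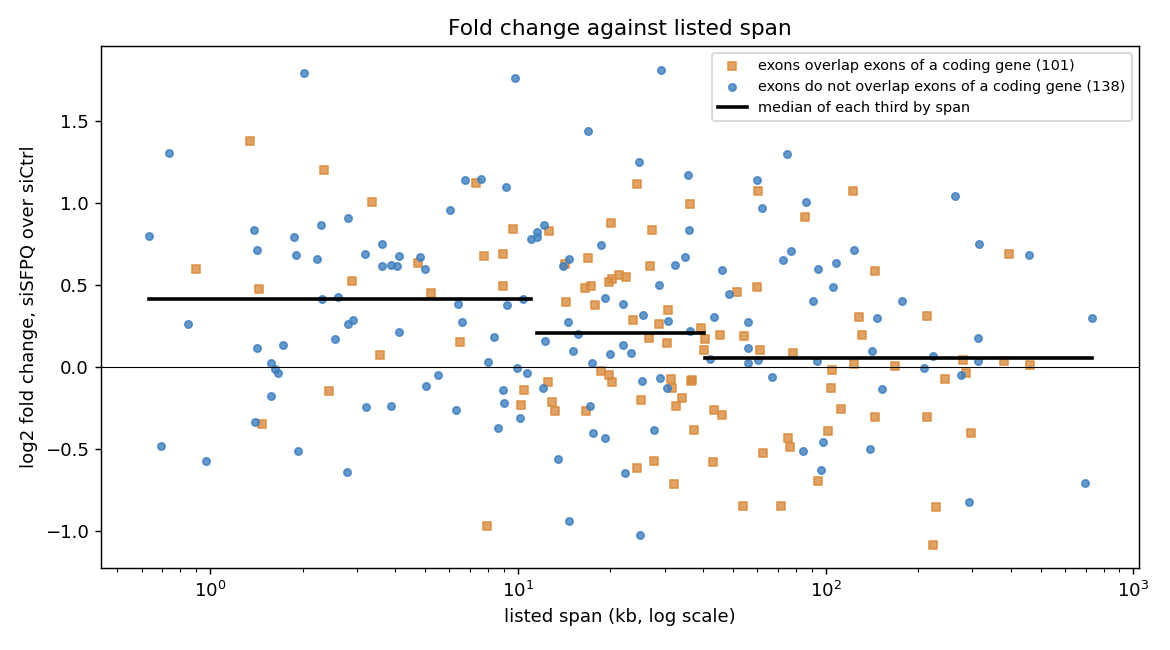
Log2 fold change, siSFPQ over siCtrl (vertical axis), against listed span in kilobases (horizontal axis, log scale) for the 239 members; squares are the 101 whose exons overlap coding exons, circles the 138 whose exons do not, and black lines the medians of the shortest, middle and longest members. The black lines step down from 0.41 to 0.21 and 0.06, and the lower right of the plot holds mostly squares.

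Among the members, level also went along with direction, but other rows were not divided by level or distance. The counts here are to be read beside the 24.5% higher and 24% lower of all tested rows. Each tier of abundance held nearly as many higher members, 31 of 79 in the lowest (mean of 11.4 to 22.0 CPM), 31 of 80 in the middle and 32 of 80 in the highest (71.4 to 2307 CPM), while lower members numbered 5, 12 and 19. A difference of a given size passes the test more easily at a higher level, and the median log2 fold change was 0.39, 0.19 and 0.09 from the lowest tier to the highest. By distance, 61 of the 146 members with a gap of up to 1000 bases to the partner's nearest start were higher and 18 lower. Of the 69 that overlap that nearest start by up to 1000 bases, 25 were higher and 13 lower, and of the 24 farther off, 8 were higher and 5 lower.

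For 11 members, another non-coding row carries the partner's symbol with an antisense suffix. Given here beside that row are the 6 most abundant of those whose other row held any count. BSN-DT, which is more abundant (2719 counts) and did not pass the test (log2 fold change 0.08), is not among them, since BSN-AS1 held 0 counts. At PRMT5 both rows rose, PRMT5-DT by 0.62 and PRMT5-AS1 by 0.22 (794 ± 32.2 CPM in siSFPQ and 679 ± 22.7 CPM in siCtrl). At FMNL1, a formin gene, FMNL1-AS1 rose by 1.19 (167 ± 16.7 CPM in siSFPQ and 72.6 ± 12.7 CPM in siCtrl) and FMNL1-DT by 0.35 (86.3 ± 9.20 CPM in siSFPQ and 68.0 ± 1.76 CPM in siCtrl). The rows differed in direction at GAS6, the ligand of TAM receptor kinases: GAS6-DT fell (60.0 ± 4.92 CPM in siSFPQ and 80.9 ± 10.8 CPM in siCtrl, log2 fold change -0.43 ± 0.13), and GAS6-AS1 rose slightly (765 ± 17.1 CPM in siSFPQ and 697 ± 16.7 CPM in siCtrl, 0.13 ± 0.06, SD over n = 3 libraries). The edgeR adjusted p was 0.0017 for GAS6-DT and 0.035 for GAS6-AS1, and GAS6-DT lost its call under DESeq2 (adjusted p = 0.091). The difference between the rows was not tested. At CTBP1, a corepressor gene, and CD44, a hyaluronan receptor gene, the divergent transcripts rose (CTBP1-DT 0.24, CD44-DT 0.28), and CTBP1-AS (-0.05) and CD44-AS1 (-0.12) did not pass. NECTIN1-DT did not pass (0.04), and NECTIN1-AS1 held 5 counts in all. Exons of FMNL1-DT and CTBP1-DT overlap exons of their own partners, and those of PRMT5-DT overlap HAUS4.

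Some of these small changes rested on single libraries. CTBP1-DT lost its call without siCtrl library 2 (edgeR adjusted p = 0.233) or siSFPQ library 3 (0.0887). FMNL1-DT lost it without siSFPQ library 2 (edgeR adjusted p = 0.117). CD44-DT lost it without siCtrl library 1 or 3 or siSFPQ library 1 or 3 (edgeR adjusted p from 0.0842 to 0.204).

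Near the threshold of 100 counts, JUN-DT held 100 counts, ZKSCAN2-DT 101 and CBARP-DT 104, and just outside FRG1-DT, AHI1-DT and SF1-DT held 99 each. JUN-DT, at the gene of an AP-1 subunit, had 20, 24 and 19 counts in siSFPQ, against 10, 19 and 8 counts in siCtrl, so the groups overlapped in CPM. Its call (log2 fold change 0.68 ± 0.30; edgeR adjusted p = 0.049) was lost without siCtrl library 1 or 3 or siSFPQ library 1 or 2 (edgeR adjusted p from 0.11 to 0.245). ZKSCAN2-DT (-0.45) and CBARP-DT (0.42) did not pass. Outside, FRG1-DT fell (-0.70 ± 0.30; edgeR adjusted p = 0.041), and AHI1-DT (0.18) and SF1-DT (0.12) did not pass.

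Members at duplicated genes are uncertain, because the counting may have split their reads. ARHGAP11A-DT and ARHGAP11B-DT, at paralogous genes, had log2 fold changes of -0.39 and -0.31, and the first passed the test. EOLA1-DT (-0.27) passed and EOLA2-DT (-0.04) did not, and MAGEA3-DT, from a family of near copies, stood at 0.02.

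Against neighbouring classes of non-coding genes, the share that rose was largest for the members (39.3%). Their median of 0.19 was not the largest, as both groups of other -DT rows below had higher medians. Of 749 rows with an antisense (-AS) name and at least 100 counts, 28.8% were higher and 26.4% lower (median 0.05), and of 304 LINC rows 30.6% were higher and 26.6% lower (median 0.06). Of the 8 zinc-finger -DT rows with at least 100 counts, 2 were higher and 0 lower (median 0.28). Of 47 -DT rows under the threshold that could be tested, 10 were higher and 5 were lower (median 0.26). These shares set the members beside other rows of the same fit and are not a test of the class.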

How the data were processed

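Poly(A)-selected RNA of 3 siSFPQ and 3 siCtrl libraries was analysed from raw counts per gene, deposited by the authors as whole numbers with no normalisation. Which aligner, counter, strand setting, annotation and build they used is not given in the sources used here. Coordinates are as listed and read as GRCh38, since all 235 members that GENCODE 29 holds by identifier overlap their position in that release. For those 235, overlap with coding exons was judged on their GENCODE 29 exons, which may differ from the exons counted. For the other 4 it was judged on the listed span. For 13 members the exonic length given is longer than the span given.

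All rows were fitted together with edgeR 4.0.16 (R 4.3.3; rows kept by filterByExpr, TMM factors, robust quasi-likelihood, group as the only term, two-sided, Benjamini-Hochberg, threshold 0.05). The standard error is the size of the log2 fold change divided by the square root of the F statistic. The steps were tested on simulated counts. Alternatives were RLE and upper-quartile scaling, plain library totals, no filter, a stricter filter (1 CPM), limma-voom 3.58.1, DESeq2 1.42.0, a replicate block, rows without coding exon overlap, and leaving out each library; DESeq2 on the rows that edgeR kept was added after seeing the data. No 2 replicates were duplicates by a chi-square test of their counts.

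The members and lists were chosen with earlier results of these data known. Named members are the 10 largest increases and 8 largest decreases among called members whose mean reached 5 CPM and whose groups do not overlap, the 4 most abundant called in each direction and not called, the 2 with the smallest adjusted p of each list, the 3 rows on either side of the count threshold, and up to 6 that share a partner with another named row. Some members that this rule takes are not reported here. Any other member named was picked with its values in view.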

Additional observations from a re-analysis of the deposited data

How the results depend on the processing

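No named member changed direction under any alternative run. Of 840 values of 54 named members under alternatives, 801 kept their direction and side of the threshold, 34 lost the call and 5 gained it. Of 94 members higher in siSFPQ, 70 were called without each library in turn, and of 36 lower, 22 were. Without 1 library, the count of higher members was 81 to 90, that of lower members 26 to 36, the median log2 fold change 0.19 to 0.22, and the number of lists with more higher than lower members 9 to 11.

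DESeq2 called 52 higher and 19 lower, against 10.1% and 10.6% of all rows it tested; on the rows that edgeR kept it called 64 higher and 22 lower, against 16% and 17% of all those rows. SUCLG2-DT, FAM111A-DT, CKAP2-DT, JUN-DT, CTBP1-DT, CD44-DT, FMNL1-DT and GAS6-DT lost their calls under DESeq2 with its own filter (adjusted p from 0.0791 to 0.34). The cause was not tested. Scaling by plain library totals moved the median of the members to 0.26 and that of all rows to 0.07, with 105 higher and 25 lower. Fitting only rows without coding exon overlap left 138 members, 53 higher and 16 lower, with a median of 0.27; fewer rows entered that fit. With the replicate number as a block, 93 were higher and 35 lower, and no call of a named member changed. Deviations of same-numbered libraries correlated at -0.004, 0.001 and 0.007, so no pairing by number was seen. Counting noise enters these deviations, so they cannot exclude that same-numbered libraries were made together.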

Other observations

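The members named here were chosen after their values were seen. The lists had no group for sterol metabolism. Divergent transcripts at 3 genes of sterol metabolism rose: DHCR7-DT (75.6 ± 2.44 CPM in siSFPQ and 44.7 ± 10.6 CPM in siCtrl, log2 fold change 0.75 ± 0.14), at the gene of a late cholesterol synthesis enzyme, INSIG1-DT (48.95 ± 8.61 CPM in siSFPQ and 28.4 ± 7.20 CPM in siCtrl, 0.79 ± 0.17), at the gene that holds the sterol sensor in the endoplasmic reticulum, and MBTPS1-DT (21.2 ± 2.46 CPM in siSFPQ and 12.8 ± 5.30 CPM in siCtrl, 0.71 ± 0.25), at the gene of the protease that cleaves sterol-responsive transcription factors (SD, n = 3 each). In these 3 the groups did not overlap. Their joint direction was not tested. Within the translation list, divergent transcripts at aminoacyl-tRNA synthetase genes stood near 0 and did not pass, at 0.14 for TARS1-DT and 0.08 for GARS1-DT.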
